A study of Homo sapiens with 40 samples.

Results

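The genes described here encode the machinery that copies DNA in S phase, together with the enzymes that supply its deoxynucleotides, the factors that rebuild chromatin behind the fork, and cyclins E. They were chosen by name: 43 genes out of the 19774 that had a probe set of their own on the arrays, read by 79 probe sets, 77 of which passed the filter on dim signals. All 43 genes passed that filter and were among the 17191 genes tested, and 19 of them had only 1 probe set. Where a gene had several probe sets the brightest over all arrays was used, and the rule that lists the genes uses no measured value.

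The cells were U87, an established human glioblastoma line. Those with EV, WT or a variant carried stably the vector pCDH-CMV-MCS-EF1-Puro-copGFP, in which a CMV promoter drives the insert, while the vector of the IRE1-DN cells is not plain from the labels, so EV cells may not be their matched control. The 7 lines held the empty vector (EV), wild-type IRE1 (WT), IRE1 with the luminal changes P336L or A414T, IRE1 with the cytosolic changes S769F or Q780*, of which the latter stops the protein early, or a dominant negative form of IRE1 (IRE1-DN). Each line was left untreated (basal) or kept for 16 h in tunicamycin at 0.5 µg/ml, with 3 arrays for each line and condition and 2, numbered 2 and 3, for IRE1-DN cells, that is 40 arrays in 14 groups. IRE1 is the sensor of stress in the endoplasmic reticulum (ER) that splices XBP1 mRNA, and the study describes its forms as expressed beside the cells' own IRE1. Clone numbers stand in the labels of the 4 variant lines, whereas the methods describe polyclonal populations, so a difference between such a line and EV cells cannot be told apart from a difference between clones. Replicates are called biological in the labels with nothing said of separate cultures, so p-values measure the spread between these arrays, which may be technical.

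As background, origins are licensed in G1 when ORC, CDC6 and CDT1 load the MCM ring onto DNA. MCM10, CDC45 and GINS then turn the ring into a running helicase, polymerase alpha with primase starts each strand, and polymerases epsilon and delta extend it on the PCNA clamp that RFC loads. Transcription of these genes is known to be driven by E2F factors once cyclin-dependent kinases have phosphorylated the RB family, and cyclin E with CDK2 is part of that switch. In bulk RNA a lower signal may come from fewer cells in S phase or from less mRNA in each cell, which cannot be told apart here.

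Values are log2 signals, and differences between groups are log2 fold changes from limma, fitted over all arrays and adjusted by Benjamini-Hochberg over all genes tested. A gene was called at an adjusted p under 0.05. Tunicamycin raised all 12 genes of an ER stress check in all 7 lines. Vimentin, a marker of mesenchymal glioma cells, lay between 12.96 and 13.38 on the 40 arrays. GFAP, the astrocyte filament, stayed at 4.62 or below and PTPRC, the pan-leukocyte marker, at 4.02 or below. Other markers of these cells were mixed. CD44, TNC, FN1 and S100A6, listed with vimentin, lay between 11.39 and 13.10, but NES ranged from 4.03 to 6.83. Of astrocyte markers AQP4 stayed at 4.54 or below, while SLC1A3 lay between 6.45 and 9.09 and ALDH1L1 between 5.55 and 6.54. The immune markers CD14, AIF1 and CD163 stayed at 5.53 or below. Among endothelial markers KDR reached 7.29, and PECAM1, VWF and CDH5 reached 5.49 at most. The probe set used for ERN1, the gene of IRE1, was not called higher than in EV cells in any line, and it was lower in A414T cells on tunicamycin and in IRE1-DN cells in both conditions (-1.05 without treatment, standard error 0.28, adjusted p = 0.0039 from limma), so it checks the labels only in part.

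On tunicamycin, replicate 1 stood apart from replicates 2 and 3 in 4 of the lines. It was the highest of the 3 arrays for 38 of the 43 genes in EV, 41 in WT, 39 in P336L and 42 in A414T cells, and for 16 in S769F and 18 in Q780* cells. The median gene was higher in replicate 1 than in the mean of the other two by 0.43 in EV, 0.82 in WT, 0.46 in P336L and 1.22 in A414T cells, and by 0.07 in Q780* cells. In A414T cells the gap ran from 0.12 for POLD3 to 2.63 for CDC45. DDIT3, a target of the ER stress response, lay between 10.85 and 11.54 on all arrays with tunicamycin. On replicate 1 it was 11.07 in EV cells against 11.21 and 11.54, and 10.95 in WT cells against 11.08 and 11.08. In A414T cells it was 11.02 against 11.09 and 11.04, and in P336L cells 11.11 against 10.88 and 11.07. HSPA5, an ER chaperone gene of the stress check, was lowest on replicate 1 in EV, WT and A414T cells. It stood there at 13.23 against 13.29 and 13.29, 13.26 against 13.34 and 13.35, and 13.28 against 13.36 and 13.35. Replicate 1 was not the lowest in P336L (13.31 against 13.35 and 13.30), S769F (13.39 against 13.38 and 13.35) or Q780* cells (13.37 against 13.38 and 13.32). The 3′ minus 5′ signal of ACTB, a sign of RNA quality, was 1.39 on replicate 1 of A414T cells against 2.06 and 1.93 on the others, and 2.21 on replicate 1 of EV cells against 1.81 and 1.93. On replicate 1 of WT and P336L cells it lay between the others, at 1.79 against 1.52 and 1.93 and at 1.87 against 1.73 and 2.14. The part of RNA quality, of the strength of ER stress and of the replicates in the results was not tested.

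RefSeq promoters (GRCh38.p14, 250 bases before the start to 50 after it) were found for 36 of the 43 genes. An E2F-type motif, that is TTTCGCGC, TTTGGCGC, TTTCCCGC or TTTGGCGG on either strand, was present in 21 of the 36, or 58.3%, and in 3.43% of the 27305 promoters of all genes. The NF-Y motif CCAAT was in 58.3% of them and 35.7% of all promoters, and the CHR motif (TTTGAA or TTCGAA) of mitotic promoters in 5.56% and 16.6%. TTTCGCGC and TTTGGCGC can overlap on opposite strands around a shared GCGC. A match says only that these letters stand there. The stretches below are shown because these 4 genes also carry results described further on and hold an E2F-type motif upstream of the start; the motif is in capitals, and each runs 5′ to 3′ on the strand of its gene. They span chr17:40287784-40287873 (+ strand) for CDC6, chr2:135876507-135876596 (- strand) for MCM6, chr13:33818027-33818116 (+ strand) for RFC3 and chr19:4909411-4909500 (+ strand) for UHRF1.
CDC6: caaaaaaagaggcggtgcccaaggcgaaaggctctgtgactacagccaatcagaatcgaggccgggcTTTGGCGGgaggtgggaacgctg
MCM6: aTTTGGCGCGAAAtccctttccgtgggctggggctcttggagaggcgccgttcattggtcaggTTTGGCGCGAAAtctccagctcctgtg
RFC3: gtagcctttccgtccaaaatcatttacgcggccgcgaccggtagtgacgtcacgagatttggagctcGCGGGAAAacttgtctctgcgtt
UHRF1: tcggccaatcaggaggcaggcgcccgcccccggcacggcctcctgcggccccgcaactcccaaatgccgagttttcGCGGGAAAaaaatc
MCM6 holds 2 pairs of overlapping motifs, each pair facing both ways, whereas the stretches of the other 3 genes hold 1 motif each. No promoter sequence was used here for CCNE2, GINS4, MCM4, MCM5, POLD3, RPA2 and RPA3.

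Tunicamycin lowered nearly every one of these genes in every line. Of the 43 genes, 41 fell in EV, 42 in WT, 42 in S769F, 43 in Q780*, 41 in P336L, 42 in A414T and 42 in IRE1-DN cells, and none rose in any line. Among all genes tested, the share called lower was 12.7% in EV, 13.5% in WT, 13.8% in S769F, 16% in Q780*, 14% in P336L, 17.3% in A414T and 10.7% in IRE1-DN cells. The share called higher was 18.2%, 15.8%, 16.9%, 19.9%, 12%, 15.8% and 9.1% in the same order. The median log2 fold change of the 43 genes was -1.57 in EV, -1.59 in WT, -2.25 in S769F, -2.46 in Q780*, -1.41 in P336L, -2.15 in A414T and -2.44 in IRE1-DN cells, whereas the median over all genes lay between -0.04 and 0.02. By the methods' t-test with Benjamini-Hochberg adjustment 24 genes were called in A414T, against 17.1% of all genes, and 0 in IRE1-DN cells, where with 2 arrays against 2 it called 0 of all 17191 genes. With replicates 2 and 3 only, a setting added after the data were seen, the median was -1.71 for EV, -1.99 for WT, -1.60 for P336L and -2.55 for A414T cells. At least 8-fold falls were seen for 14 genes in Q780*, 11 in IRE1-DN, 8 in S769F, 5 in EV, 4 in A414T, 2 in WT and 1 in P336L cells.

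The mean signal over the 43 genes showed the same fall on each array. Basal group means lay between 9.07 in WT and 9.46 in A414T cells. With tunicamycin EV cells had 7.49 ± 0.33 (SD, n = 3), WT cells 7.38 ± 0.47 (SD, n = 3), P336L cells 7.68 ± 0.25 (SD, n = 3) and A414T cells 7.29 ± 0.73 (SD, n = 3). S769F cells had 6.84 ± 0.068 (SD, n = 3), Q780* cells 6.62 ± 0.034 (SD, n = 3) and IRE1-DN cells 6.71 ± 0.039 (SD, n = 2), and all arrays of these 3 lines lay below every array of EV cells. Every array with tunicamycin, at 8.13 or below, was lower than every basal array, at 8.99 or above.

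**Figure D1:**
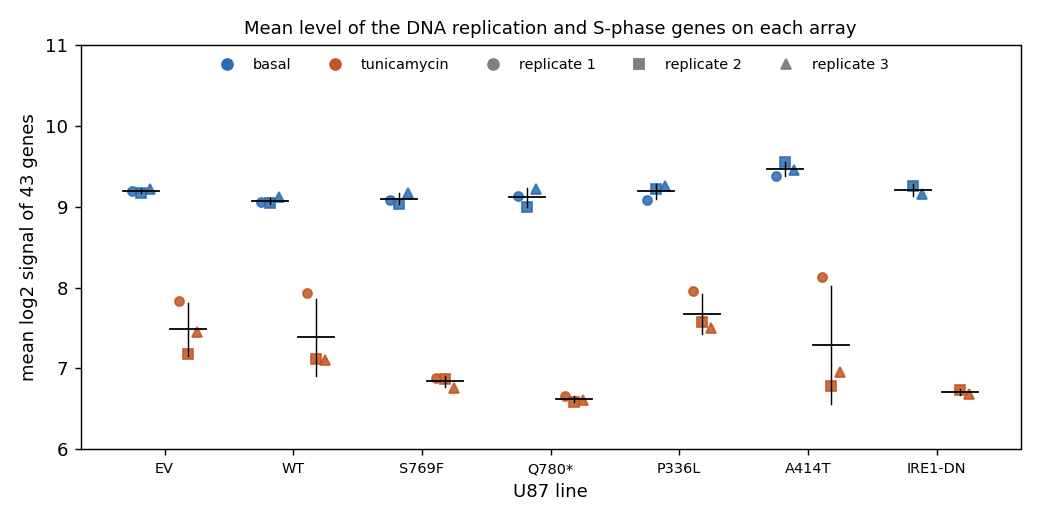
Mean log2 signal of the 43 DNA replication and S-phase genes on each of the 40 arrays, by U87 line (x axis) and condition (colour), with the replicate number as the marker, a bar at the group mean and a line of ± 1 SD. All arrays with tunicamycin lie at 8.13 or below and all basal arrays at 8.99 or above, and replicate 1 on tunicamycin is the highest of its group in EV, WT, P336L and A414T cells.

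POLD2 and CHAF1B were the genes that did not pass in some line. POLD2, the second subunit of polymerase delta, had log2 fold changes of -0.26 in EV (adjusted p = 0.271 from limma), -0.13 in WT (0.623), -0.32 in P336L (0.181), -0.13 in A414T (0.629) and -0.33 in IRE1-DN cells (0.329), with standard errors of 0.17, or 0.21 for IRE1-DN cells. It fell in S769F (-0.45) and Q780* cells (-0.61). CHAF1B, a subunit of chromatin assembly factor 1, had -0.60 in EV (adjusted p = 0.208), -0.80 in S769F (0.0849) and -0.91 in P336L cells (0.0539) with a standard error of 0.35, and fell in the other 4 lines. The basal and tunicamycin arrays overlapped for POLD2 in EV, WT, P336L and A414T cells, for TK1 in A414T and for CHAF1B in P336L cells, and for no other of the 43 genes. Of all genes tested, 18.6% to 26.5% had every array with tunicamycin below every basal array of the same line.

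**Figure D2:**
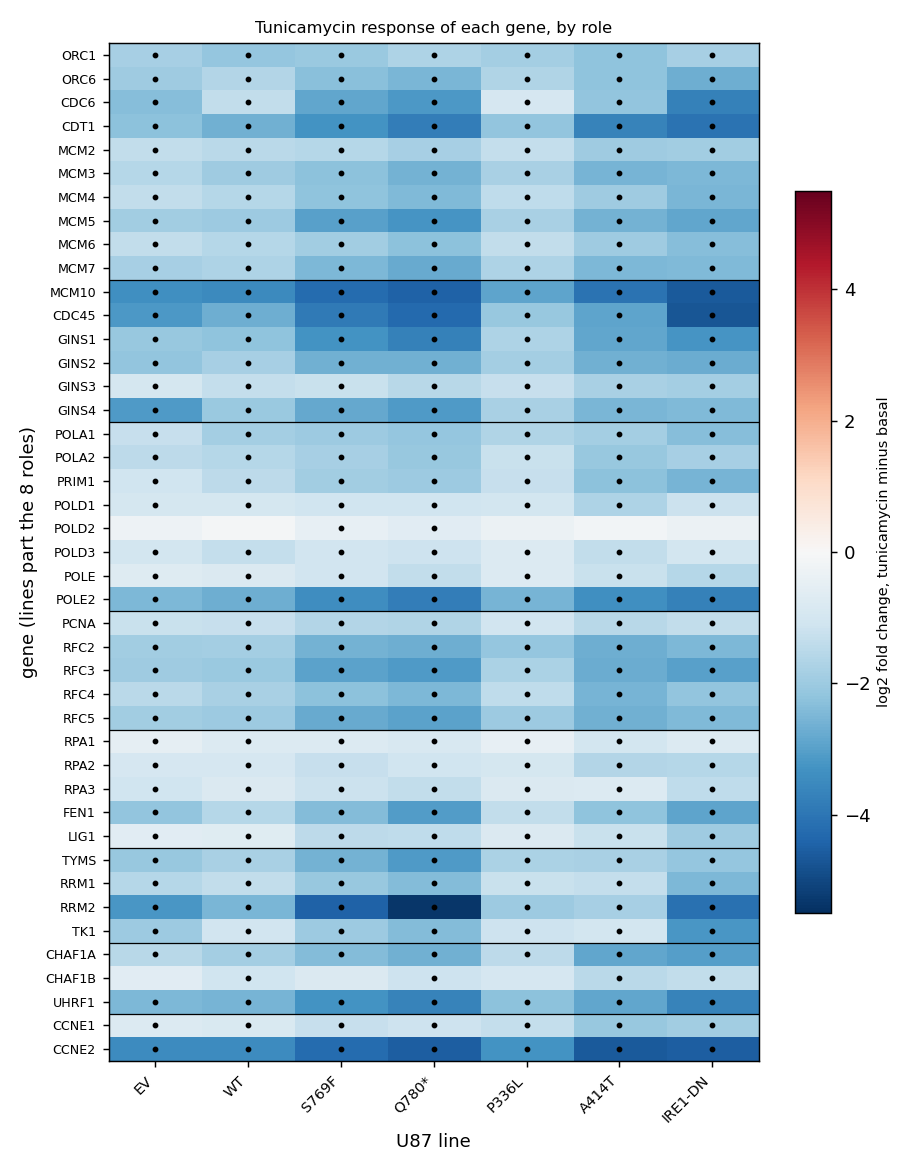
Log2 fold change of each of the 43 genes (rows, parted by role) on tunicamycin in each of the 7 lines (columns), with blue for lower signal on tunicamycin and a dot where limma's adjusted p was under 0.05. All dots stand on blue; RRM2 in Q780* cells, at -5.33, is the deepest, and POLD2 is the palest row.

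Origin licensing was lower throughout. All 10 genes (ORC1, ORC6, CDC6, CDT1 and MCM2 to MCM7) fell in all 7 lines, with median log2 fold changes from -1.65 in WT to -2.56 in Q780* cells. CDC6, the ATPase that helps load the MCM ring, had basal signals of 8.68, 8.49 and 8.65 for EV, 8.86, 8.57 and 8.89 for WT, 8.59, 8.45 and 8.71 for S769F, 8.20, 8.11 and 8.57 for Q780*, 8.60, 8.88 and 8.98 for P336L, 9.06, 9.04 and 9.01 for A414T and 8.45 and 8.46 for IRE1-DN cells (replicates 1, 2 and 3, or 2 and 3 for IRE1-DN). On tunicamycin its signals were 6.70, 5.44 and 6.58 for EV, 7.99, 7.16 and 7.08 for WT, 5.80, 5.96 and 5.45 for S769F, 5.71, 4.95 and 4.78 for Q780*, 8.16, 7.94 and 7.60 for P336L, 8.12, 6.46 and 6.08 for A414T and 4.88 and 4.59 for IRE1-DN cells. CDC6 thus fell least in P336L cells, by 0.92 on the log2 scale (standard error 0.34, adjusted p = 0.044 from limma), and most in IRE1-DN cells (-3.72, standard error 0.42, adjusted p = 6.64e-08). The call in P336L cells was lost under 7 of 15 alternatives.

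MCM6 is a subunit of the replicative helicase and was more even between lines. Its basal signals were 10.88, 10.95 and 10.80 for EV, 10.78, 10.72 and 10.64 for WT, 10.76, 10.95 and 10.99 for S769F, 10.87, 10.91 and 10.95 for Q780*, 10.86, 10.85 and 10.99 for P336L, 11.47, 11.44 and 11.44 for A414T and 11.46 and 11.22 for IRE1-DN cells. With tunicamycin they were 9.71, 9.40 and 9.46 for EV, 9.68, 8.93 and 8.82 for WT, 8.86, 9.05 and 9.02 for S769F, 8.64, 8.70 and 8.65 for Q780*, 9.67, 9.57 and 9.36 for P336L, 10.21, 9.05 and 9.17 for A414T and 8.90 and 9.09 for IRE1-DN cells. The fall of MCM6 ran from -1.35 in EV to -2.35 in IRE1-DN cells, and replicate 1 of A414T cells was the highest of all arrays with tunicamycin. CDT1, which brings the MCM ring to the origin and is removed once S phase begins, fell by 2.15 in P336L and by 4.07 in IRE1-DN cells on the log2 scale.

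The 6 helicase activators (MCM10, CDC45 and GINS1 to GINS4) fell in all 7 lines, with a median of -1.82 in P336L and -3.43 in Q780* cells. MCM10, which helps the loaded helicase open DNA, had basal signals of 7.74, 7.52 and 8.06 for EV, 8.46, 8.28 and 8.68 for WT, 8.40, 8.62 and 8.76 for S769F, 8.40, 8.44 and 8.81 for Q780*, 8.77, 8.76 and 8.71 for P336L, 8.88, 9.21 and 9.13 for A414T and 8.59 and 8.72 for IRE1-DN cells. On tunicamycin the signals were 5.23, 3.67 and 4.30 for EV, 6.51, 4.16 and 4.31 for WT, 4.36, 4.45 and 4.29 for S769F, 4.43, 3.95 and 3.95 for Q780*, 6.64, 5.62 and 5.32 for P336L, 6.66, 4.10 and 4.23 for A414T and 3.86 and 4.22 for IRE1-DN cells. On 8 of the 20 arrays with tunicamycin MCM10 lay below the 40th percentile of all probe sets (4.23 to 4.31), which limits its fold change in the lines of those arrays. The P336L arrays all lay above it. The fold changes of MCM10 ran from -2.89 to -4.61 across the lines. CCNE2 was under that percentile on 7, ORC1 on 4, CDC45 on 3, and GINS4 and POLE2 on 1 array each, and the other 37 genes on none.

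GINS4, a subunit of the GINS complex that ties the helicase together, differed between lines already without treatment. Its basal signals were 8.55, 8.73 and 8.89 for EV, 7.26, 7.35 and 7.76 for WT, 7.49, 7.33 and 7.39 for S769F, 7.41, 7.72 and 7.69 for Q780*, 6.71, 7.51 and 7.44 for P336L, 7.45, 8.29 and 7.99 for A414T and 6.62 and 7.12 for IRE1-DN cells. On tunicamycin they were 6.25, 5.08 and 5.51 for EV, 5.83, 5.19 and 5.24 for WT, 4.73, 4.52 and 4.51 for S769F, 4.80, 4.17 and 4.48 for Q780*, 5.91, 5.14 and 5.31 for P336L, 6.23, 4.68 and 5.23 for A414T and 4.56 and 4.29 for IRE1-DN cells. The fall was -3.11 in EV cells (standard error 0.30, adjusted p = 2.16e-09 from limma) and -1.77 in P336L cells (adjusted p = 3.27e-05), and all basal EV arrays lay above all basal arrays of the other 6 lines.

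Among polymerases and primase, 7 of 8 genes fell in EV, WT, P336L, A414T and IRE1-DN cells and all 8 in S769F and Q780* cells, with medians from -1.05 in EV to -1.77 in A414T cells. POLE2, the second subunit of polymerase epsilon, changed most. Its basal signals were 8.24, 8.44 and 8.21 for EV, 8.17, 7.87 and 7.72 for WT, 8.33, 8.35 and 8.18 for S769F, 8.31, 8.27 and 8.21 for Q780*, 8.44, 8.52 and 8.49 for P336L, 9.28, 9.42 and 9.41 for A414T and 8.67 and 8.68 for IRE1-DN cells. Its signals on tunicamycin were 6.01, 5.60 and 5.83 for EV, 5.87, 4.70 and 5.12 for WT, 4.70, 5.21 and 4.75 for S769F, 4.16, 4.67 and 4.50 for Q780*, 6.69, 5.53 and 5.57 for P336L, 7.20, 5.26 and 5.51 for A414T and 5.09 and 4.82 for IRE1-DN cells. The log2 fold change of POLE2 ran from -2.48 in EV (standard error 0.32, adjusted p = 3.05e-07 from limma) to -3.82 in Q780* cells (adjusted p = 5.64e-11). The catalytic subunits moved less: POLE by -0.73 to -1.56 and POLD1 by -0.97 to -1.68 across the lines.

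The sliding clamp and its loader fell as a whole, 5 of 5 genes in all 7 lines. RFC3, a subunit of the loader, had basal signals of 10.03, 9.96 and 9.72 for EV, 9.98, 9.79 and 9.58 for WT, 9.92, 9.86 and 9.75 for S769F, 9.84, 9.80 and 9.70 for Q780*, 9.71, 9.79 and 9.88 for P336L, 10.27, 10.27 and 10.03 for A414T and 9.90 and 9.77 for IRE1-DN cells. On tunicamycin they were 8.64, 7.48 and 7.74 for EV, 8.47, 7.32 and 7.41 for WT, 6.89, 6.82 and 7.04 for S769F, 6.82, 6.67 and 6.50 for Q780*, 8.42, 8.05 and 7.72 for P336L, 8.86, 6.30 and 7.22 for A414T and 6.97 and 6.72 for IRE1-DN cells. In S769F, Q780* and IRE1-DN cells every array with tunicamycin lay below every such array of EV cells, and the fall in Q780* cells was -3.12 (standard error 0.36, adjusted p = 2.12e-08 from limma). The 3 probe sets of RFC3 did not move alike: in S769F cells their log2 fold changes ran from -3.93 to 0.04.

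RFC2, another loader subunit, had basal signals of 8.71, 8.25 and 8.76 for EV, 8.84, 8.90 and 9.03 for WT, 8.86, 8.41 and 9.18 for S769F, 8.69, 8.62 and 8.85 for Q780*, 8.75, 9.05 and 8.91 for P336L, 9.27, 9.28 and 9.18 for A414T and 8.85 and 8.54 for IRE1-DN cells. With tunicamycin the signals were 6.81, 6.32 and 6.81 for EV, 7.64, 6.71 and 6.80 for WT, 6.32, 6.28 and 6.01 for S769F, 6.10, 5.96 and 6.09 for Q780*, 7.35, 6.33 and 6.64 for P336L, 7.63, 6.24 and 5.77 for A414T and 6.35 and 6.07 for IRE1-DN cells. Its falls ran from -1.88 in WT to -2.69 in A414T cells. PCNA, the clamp itself, fell less, by 1.05 in P336L and by 1.66 in Q780* cells on the log2 scale.

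Single-strand binding and lagging-strand genes had the smallest median fall of the 8 roles in all 7 lines, from -0.79 in P336L to -1.55 in IRE1-DN cells, and all 5 fell in all 7 lines. FEN1, the nuclease that trims Okazaki fragments, had basal signals of 10.78, 10.97 and 10.60 for EV, 10.71, 10.73 and 10.50 for WT, 10.68, 10.61 and 10.44 for S769F, 10.73, 10.59 and 10.70 for Q780*, 10.65, 10.79 and 10.76 for P336L, 10.77, 10.91 and 10.84 for A414T and 10.64 and 10.41 for IRE1-DN cells. On tunicamycin its signals were 9.13, 8.16 and 8.56 for EV, 9.61, 8.88 and 8.77 for WT, 8.29, 8.17 and 8.06 for S769F, 7.67, 7.43 and 7.67 for Q780*, 9.51, 9.27 and 9.31 for P336L, 9.30, 8.14 and 8.40 for A414T and 7.69 and 7.54 for IRE1-DN cells. FEN1 fell 2.58-fold in P336L and 8.45-fold in Q780* cells (adjusted p = 1.03e-05 and 1.72e-12 from limma).

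RPA2, the middle subunit of the protein that coats single-stranded DNA, had basal signals of 10.55, 10.40 and 10.42 for EV, 10.50, 10.41 and 10.34 for WT, 10.34, 10.33 and 10.25 for S769F, 10.14, 10.22 and 10.24 for Q780*, 10.37, 10.29 and 10.29 for P336L, 10.21, 10.11 and 10.10 for A414T and 9.64 and 9.48 for IRE1-DN cells. On tunicamycin they were 9.58, 9.46 and 9.56 for EV, 9.73, 9.48 and 9.24 for WT, 9.05, 9.18 and 8.92 for S769F, 9.17, 9.23 and 8.90 for Q780*, 9.56, 9.38 and 9.11 for P336L, 8.98, 8.40 and 8.20 for A414T and 8.04 and 7.97 for IRE1-DN cells. In IRE1-DN cells both conditions lay below those of EV cells, and the fall was -1.55 (standard error 0.17, adjusted p = 3.18e-08 from limma) against -0.92 in EV cells. RPA1, the large subunit, moved least in P336L cells, by -0.44.

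All 4 genes of nucleotide supply fell in all 7 lines. RRM2, the small subunit of ribonucleotide reductase, which limits deoxynucleotide supply in S phase, had basal signals of 11.92, 11.93 and 11.73 for EV, 11.93, 11.91 and 11.84 for WT, 11.98, 11.92 and 11.92 for S769F, 11.82, 11.91 and 11.87 for Q780*, 11.78, 11.88 and 11.95 for P336L, 12.23, 12.32 and 12.17 for A414T and 12.02 and 11.99 for IRE1-DN cells. On tunicamycin the signals were 9.93, 7.53 and 8.56 for EV, 10.30, 8.84 and 9.05 for WT, 7.94, 7.43 and 7.17 for S769F, 7.02, 5.73 and 6.86 for Q780*, 10.22, 9.54 and 9.85 for P336L, 11.31, 9.49 and 10.40 for A414T and 7.55 and 8.25 for IRE1-DN cells. The fall of RRM2 was 40.2-fold in Q780* cells (adjusted p = 1.65e-11 from limma), 9.1-fold in EV and 3.58-fold in A414T cells (adjusted p = 4.57e-07 and 0.000722). Within EV, WT, P336L and A414T cells on tunicamycin, replicate 1 was the highest and replicate 2 the lowest. With replicates 2 and 3 only, the falls were 13.8-fold in EV and 4.92-fold in A414T cells. TK1, thymidine kinase, fell by 1.03 in A414T and by 3.20 in IRE1-DN cells on the log2 scale.

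UHRF1, which guides the copying of DNA methylation to the new strand, stood for the chromatin factors. Its basal signals were 11.02, 11.18 and 11.18 for EV, 10.76, 10.84 and 10.94 for WT, 10.82, 11.02 and 11.11 for S769F, 10.92, 11.06 and 11.18 for Q780*, 11.10, 11.06 and 11.26 for P336L, 11.59, 11.52 and 11.61 for A414T and 11.58 and 11.28 for IRE1-DN cells. On tunicamycin they were 9.47, 8.29 and 8.19 for EV, 9.28, 7.76 and 7.89 for WT, 7.68, 7.82 and 7.60 for S769F, 7.32, 7.30 and 7.50 for Q780*, 9.21, 8.79 and 8.68 for P336L, 9.71, 8.14 and 8.23 for A414T and 7.78 and 7.77 for IRE1-DN cells. Its falls ran from -2.24 in P336L to -3.68 in Q780* cells (standard error 0.32, adjusted p = 1.19e-10 from limma). CHAF1A, the large subunit of chromatin assembly factor 1, fell in all 7 lines.

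Cyclins E parted in size. CCNE2, cyclin E2, had basal signals of 8.89, 9.47 and 9.52 for EV, 8.28, 8.40 and 8.99 for WT, 8.34, 8.59 and 8.82 for S769F, 8.55, 8.41 and 8.87 for Q780*, 8.47, 8.82 and 8.72 for P336L, 8.92, 9.45 and 9.37 for A414T and 9.29 and 9.29 for IRE1-DN cells. On tunicamycin they were 6.96, 4.93 and 5.57 for EV, 5.94, 4.69 and 4.69 for WT, 4.60, 4.25 and 4.23 for S769F, 4.07, 3.93 and 4.23 for Q780*, 5.74, 5.19 and 5.28 for P336L, 5.99, 3.78 and 4.17 for A414T and 5.14 and 4.38 for IRE1-DN cells. With log2 fold changes from -3.27 to -4.60 (adjusted p at most 4.24e-07 from limma), CCNE2 fell in all 7 lines, though it lay below the 40th percentile on 7 of the 20 arrays with tunicamycin. Its other probe set moved by -1.96 in P336L to -2.62 in IRE1-DN cells.

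CCNE1, cyclin E1, had basal signals of 6.55, 6.87 and 7.15 for EV, 6.91, 6.84 and 7.24 for WT, 7.31, 7.20 and 7.49 for S769F, 7.13, 6.90 and 7.34 for Q780*, 7.06, 7.18 and 7.23 for P336L, 7.26, 7.87 and 7.57 for A414T and 7.60 and 7.66 for IRE1-DN cells. Its signals on tunicamycin were 6.02, 6.05 and 6.27 for EV, 6.18, 6.21 and 6.12 for WT, 6.23, 5.85 and 6.11 for S769F, 5.84, 6.09 and 6.05 for Q780*, 6.17, 5.73 and 5.60 for P336L, 6.03, 5.37 and 5.08 for A414T and 5.88 and 5.59 for IRE1-DN cells. CCNE1 fell by 0.74 in EV (adjusted p = 0.00244 from limma) and by 2.07 in A414T cells on the log2 scale (adjusted p = 2.65e-10). The other probe set of CCNE1 moved by -0.07 in A414T and -0.01 in IRE1-DN cells, where the one used moved by -2.07 and -1.90.

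**Figure D3:**
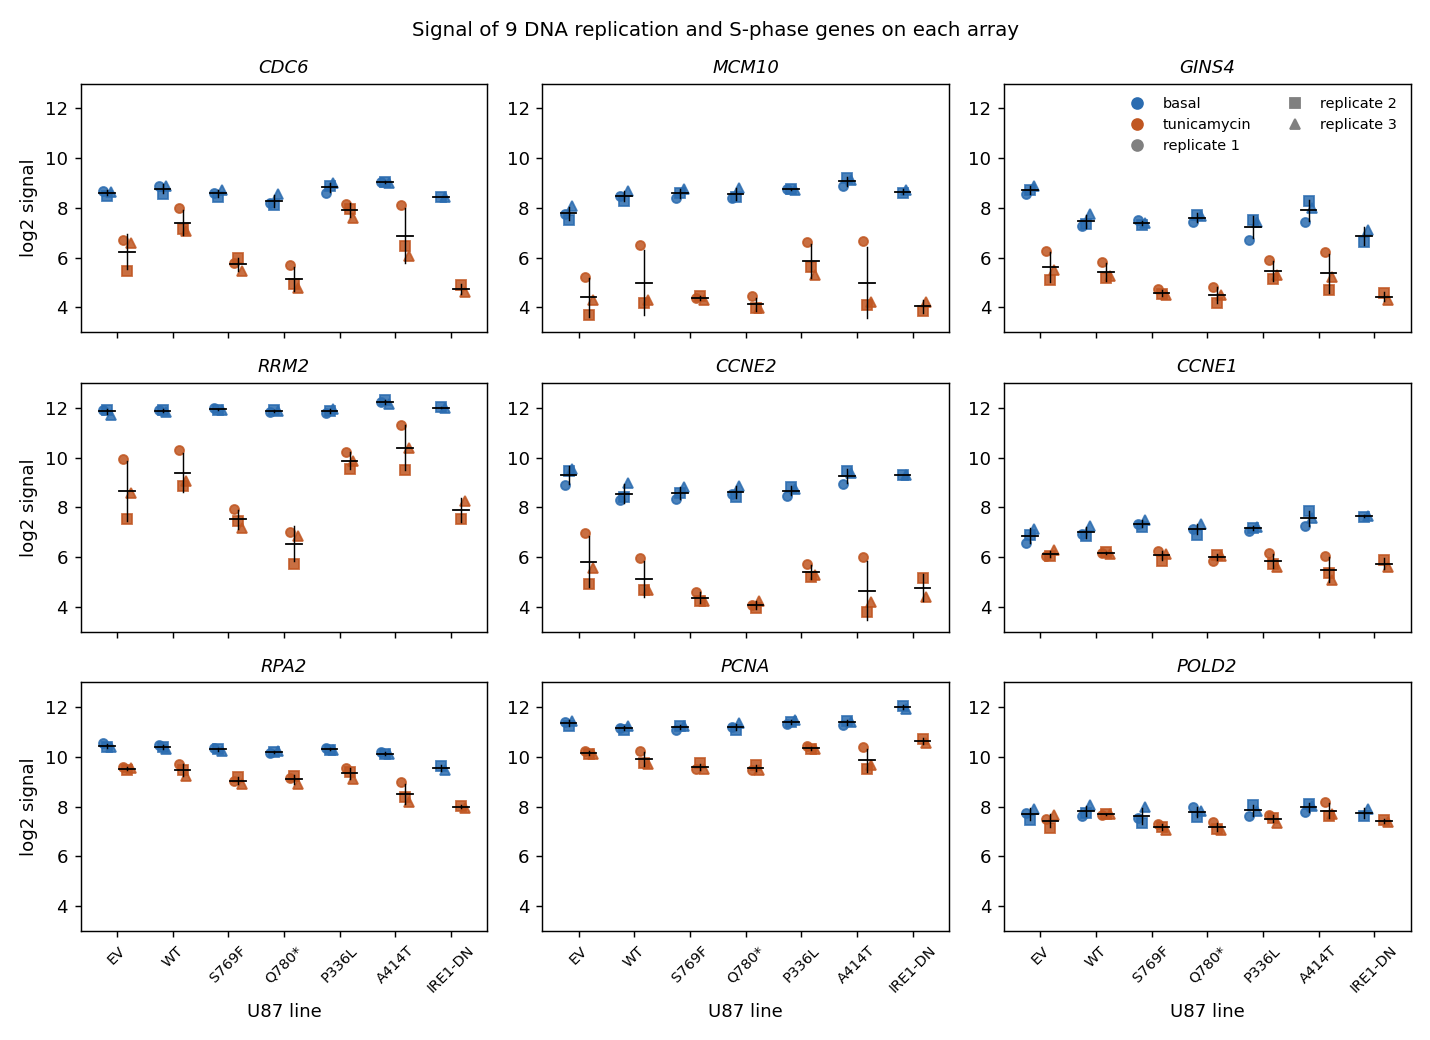
Log2 signal of 9 of the genes on each array, by line (x axis) and condition (colour), with the replicate number as the marker, a bar at the group mean and a line of ± 1 SD. POLD2 overlaps between conditions in EV, WT, P336L and A414T cells, and basal GINS4 is highest in EV cells.

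Without treatment the lines differed little. GINS4 was the only one of the 43 genes called in WT (log2 fold change -1.27 against EV, adjusted p = 0.00487 from limma), S769F (-1.32, adjusted p = 0.00427), Q780* (-1.12, adjusted p = 0.0222) and P336L cells (-1.51, adjusted p = 0.000749), lower in each, with a standard error of 0.30. These comparisons share the 3 basal EV arrays. GINS4 had 4 probe sets, whose tunicamycin responses in EV cells ran from -3.11 to -0.27. In these 4 basal comparisons no further probe set of the 43 genes that passed the filter was called, so the calls rest on the probe set used. They were not lost when a gene's probe sets were averaged. The background of all genes, lower first, was 3.68% and 4.9% for WT, 1.93% and 4.23% for S769F, 1.83% and 3.36% for Q780*, and 2.58% and 6.53% for P336L cells. A share of 1 in 43 is therefore near or below the background. All basal arrays of the other 6 lines lay above all basal EV arrays for MCM10, though it passed in none, the largest difference being 1.30 in A414T cells (standard error 0.49, adjusted p = 0.0656). By the methods' t-test with Benjamini-Hochberg adjustment, none of these 4 calls of GINS4 held (adjusted p from 0.0599 to 0.133). The call in Q780* cells was lost without replicate 2 (adjusted p = 0.0658) or 3 (0.0974) of EV or replicate 1 of Q780* cells (0.105). With a replicate block, RPA3, the small subunit of the single-strand binding protein, was also called in S769F cells (log2 fold change -0.44, adjusted p = 0.0406).

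A414T cells had 5 of the 43 genes higher than EV cells and none lower, against 10.4% of all genes higher and 8.19% lower. They were POLE2 (log2 fold change 1.07, standard error 0.32, adjusted p = 0.0146 from limma), POLD1 (0.92, adjusted p = 0.00111), GINS3 (0.79, adjusted p = 0.00744), CCNE1 (0.71, adjusted p = 0.00598) and MCM6 (0.57, adjusted p = 0.0318). In this fit the share of 5 in 43 is close to the background. The median of the 43 genes was 0.27, against 0.00 over all genes, and all 3 A414T arrays lay above all 3 EV arrays for 20 of the 43 genes and below them for 5, against 16.7% and 13.5% of all genes. POLD1, the catalytic subunit of polymerase delta, stood at 6.99, 7.63 and 7.51 in A414T and 6.29, 6.24 and 6.82 in EV cells, and POLE2 at 9.28 to 9.42 against 8.21 to 8.44. The count was 12, all higher, when only the arrays compared were fitted, against 12.4% of all genes called in either direction, and 11, all higher, by the methods' t-test, against 8.45%. With a gene's probe sets averaged it was 6 higher and 2 lower, and it was 3 without replicate 1 or 3 of EV cells. The call of MCM6 was lost when any 1 of the 6 arrays was left out (adjusted p from 0.0529 to 0.0949), and that of CCNE1 under 4 of 15 alternatives.

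IRE1-DN cells had 2 genes higher and 3 lower than EV cells, against 15.2% of all genes higher and 12.4% lower, so a smaller share of the 43 was called than of all genes. PCNA was higher (0.65, adjusted p = 0.00282 from limma), at 12.07 and 11.95 against 11.42, 11.23 and 11.45 in EV cells, and so was CCNE1 (0.78, adjusted p = 0.00489). GINS4 (-1.86, adjusted p = 6.12e-05), RPA2 (-0.90, adjusted p = 2.44e-05) and RPA3 (-0.76, adjusted p = 0.000516) were lower. RPA3 stood at 10.59 and 10.34 in IRE1-DN and 11.18, 11.21 and 11.30 in EV cells, without overlap. The median of the 43 genes was 0.03.

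On tunicamycin more of the genes differed between lines, and these comparisons share the 3 EV arrays with tunicamycin. The methods' t-test with Benjamini-Hochberg adjustment called 0 genes for WT, S769F, P336L and A414T, 1 for Q780* and 3 for IRE1-DN cells, against 3.44%, 2.37%, 2.54%, 9.06%, 2.32% and 9.64% of all genes in that order. Q780* cells had 31 of the 43 genes lower than EV cells on tunicamycin and none higher, against 4.75% of all genes lower and 4.92% higher, with a median of -0.96. By role, 9 of 10 licensing genes, 3 of 6 helicase activators, 4 of 8 polymerase and primase genes, 4 of 5 clamp and loader genes, 5 of 5 single-strand binding and lagging-strand genes, 3 of 4 nucleotide genes, 2 of 3 chromatin factors and 1 of 2 cyclins E were lower. RRM2 differed most, by -2.13 (standard error 0.42, adjusted p = 0.000623 from limma), followed by CCNE2 (-1.74) and CDT1 (-1.71). Without replicate 1 of EV cells on tunicamycin, 16 of these 31 were still called and no other, and 20 were called when only the arrays compared were fitted.

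S769F cells had 14 genes lower and none higher, against 4.41% and 4.64% of all genes, with a median of -0.60. CCNE2 (-1.46, adjusted p = 0.0221 from limma), MCM5 (-1.26, adjusted p = 0.00951) and CDT1 (-1.25, adjusted p = 0.00404) differed most. Leaving out replicate 1 of EV cells brought the count to 4, and leaving out replicate 1, 2 or 3 of S769F cells to 9, 8 or 6.

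IRE1-DN cells had 19 genes lower and 1 higher than EV cells on tunicamycin, against 14.5% of all genes lower and 11.5% higher, with a median of -0.83. IRE1-DN cells lack replicate 1, whereas the EV mean includes it. Without replicate 1 of EV cells 14 of these 20 genes were still called, and with replicates 2 and 3 only the median was -0.49. CDT1 lay at 5.61 and 5.84 against 8.37, 7.54 and 7.63 in EV cells (-2.12, adjusted p = 5.07e-06 from limma). CHAF1A (-1.58), PRIM1, the catalytic subunit of primase (-1.54), and RPA2 (-1.53) followed, with adjusted p = 0.000157, 2.87e-06 and 2.39e-09. PCNA was higher by 0.49 (adjusted p = 0.0256), at 10.74 and 10.56 against 10.24, 10.14 and 10.10. The call of PCNA was lost under 5 of 14 alternatives. Without replicate 3 of IRE1-DN cells 12 genes were called, all lower, and the lone array left was taken to vary like those of the other groups.

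A414T cells went both ways. RRM2 (1.73, standard error 0.42, adjusted p = 0.00221 from limma) and TK1 (1.21, adjusted p = 0.00804), both of nucleotide supply, were higher than in EV cells, while 11 genes were lower, among them CCNE2 (-1.17), CDT1 (-1.13), CHAF1A (-1.10), RPA2 (-1.01) and RFC4 (-0.92), a clamp loader subunit. The background was 10.3% higher and 14.6% lower. The share of the replication genes called higher was thus below that of all genes, and the share called lower above it. TK1 stood at 9.09, 7.29 and 8.10 in A414T and 7.40, 6.44 and 7.00 in EV cells, where replicate 2 of A414T cells fell within the EV range. Without replicate 1 of A414T cells, 1 gene was higher and 22 were lower, 12 of them shared in all with the 13 above, and with only the arrays compared 2 genes were called. For CHAF1A the sign turned, in A414T and IRE1-DN cells alike, when probe sets whose suffix marks cross-hybridization were left out (0.14 and 0.10).

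P336L cells had 4 genes higher than EV cells on tunicamycin and none lower, against 5.89% and 6.32% of all genes: CDC6 (1.66, standard error 0.34, adjusted p = 0.000853 from limma), MCM10 (1.45, adjusted p = 0.0489), TK1 (1.09, adjusted p = 0.0322) and FEN1 (0.75, adjusted p = 0.018). WT cells had CDC6 (1.16, adjusted p = 0.0203) and TK1 (1.20, adjusted p = 0.0167) higher and RPA1 (-0.41, adjusted p = 0.0197) lower, against 5.65% of all genes higher and 6.5% lower. All 3 arrays of P336L and of WT cells lay above the EV arrays for CDC6, the highest of which was 6.70. In P336L cells 1 gene remained called without replicate 2 or 3 of EV or replicate 1 of P336L cells, and 2 without replicate 2 of P336L cells. In WT cells 1 gene was called without replicate 2 of EV cells, and 8, all lower, without replicate 1 of WT cells.

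**Figure D4:**
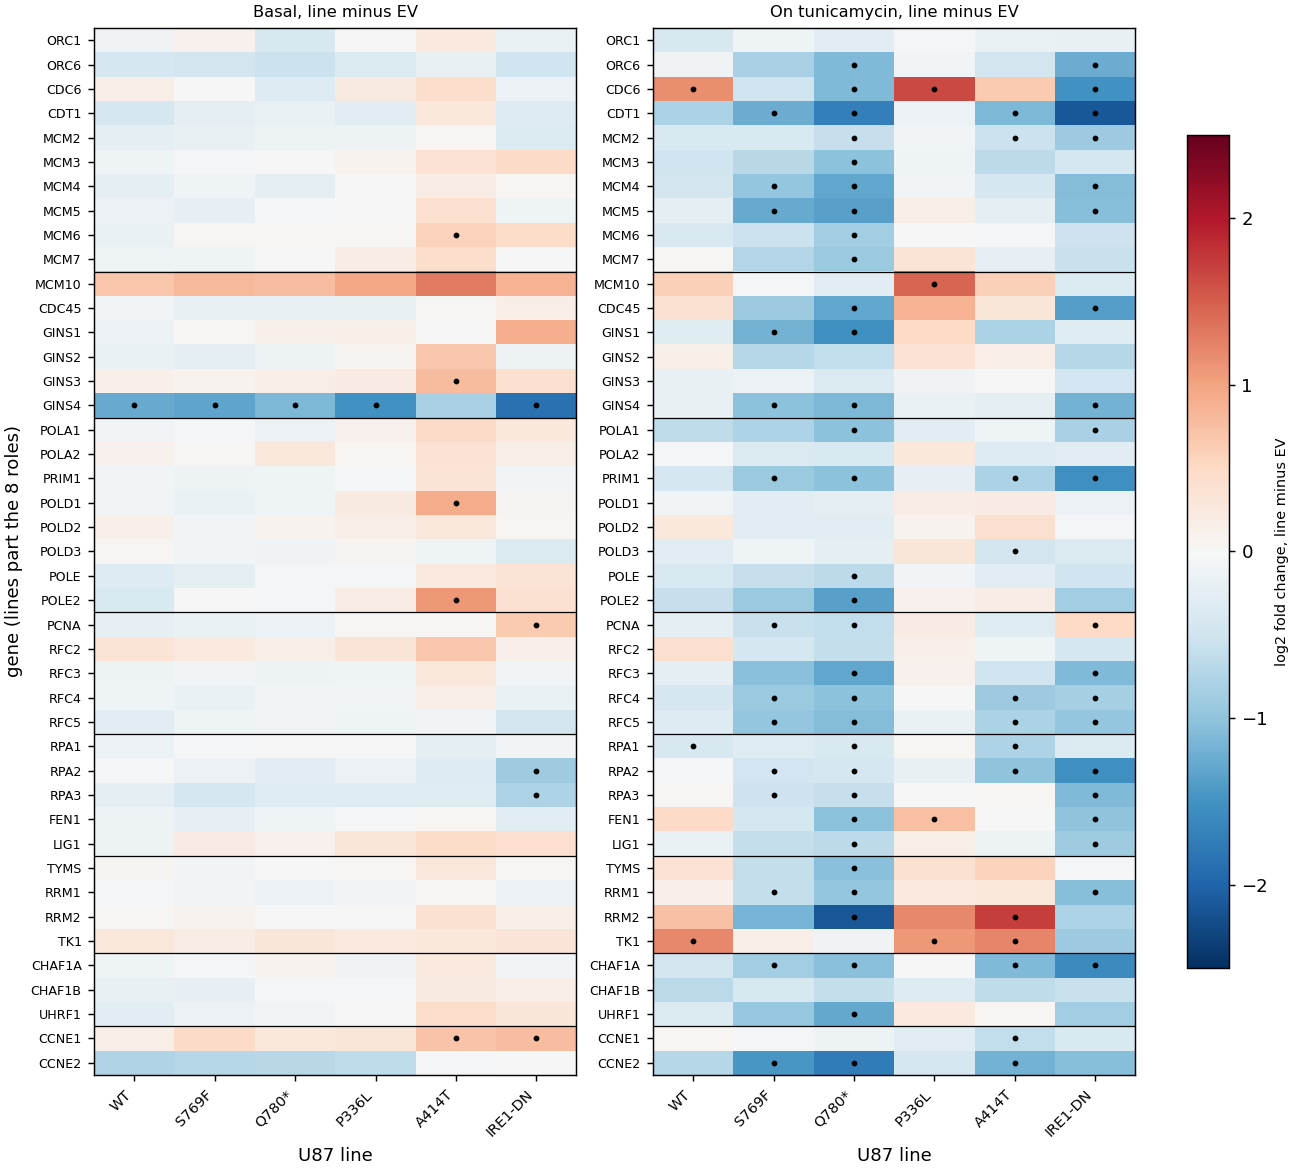
Log2 fold change of each of the 43 genes (rows, parted by role) in each line against EV cells, under basal conditions (left) and on tunicamycin (right), with red for higher and blue for lower than EV and a dot where limma's adjusted p was under 0.05. The left panel has few dots, with GINS4 called in 5 of 6 lines, while the right panel is mostly blue and dotted for Q780* (31 genes), IRE1-DN (19 lower) and S769F cells (14).

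The difference between each line's response and the EV response was tested as an interaction. No gene of the 43 was called in WT, S769F, Q780* or P336L cells by limma, while 2, 12, 24 and 4 had an unadjusted p under 0.05. Fitted on only the arrays compared, 7 were called in Q780* cells, all with a larger fall, and none in the other 3 lines. The background of all genes, higher first, was 0.145% and 0.355% for WT, 0.18% and 0.314% for S769F, 0.401% and 0.518% for Q780*, and 0.186% and 0.628% for P336L cells. Over the 43 genes this difference had a median of -0.06 for WT, -0.54 for S769F, -0.82 for Q780* and 0.13 for P336L cells.

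In A414T cells 6 genes fell more than in EV cells and none less, against 4.54% and 2.29% of all genes. The difference was -1.33 for CCNE1 (standard error 0.27, adjusted p = 0.00135 from limma), -1.13 for PRIM1, -1.08 for RFC4, -0.69 for RPA2, -1.35 for CHAF1A and -1.40 for CDT1 (adjusted p from 0.0119 to 0.0335). CHAF1A lay at 7.83, 6.14 and 6.18 in A414T and 8.22, 7.65 and 7.58 in EV cells on tunicamycin. The other probe set of CCNE1 moved by -0.07 in A414T and -0.30 in EV cells, and that of CDT1 by -1.59 and -0.87. The count rested on single arrays. Without replicate 1 of A414T cells on tunicamycin 22 genes were called, all 6 among them, and without replicate 2 or 3 of that group 1 was. It was 3 without replicate 2 of the basal A414T or basal EV arrays, 3, of which 1 fell less, without replicate 1 of EV cells on tunicamycin, and 0 with only the arrays compared.

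In IRE1-DN cells 6 genes fell more than in EV cells and none less, against 3.82% and 1.38% of all genes. They were CDT1 (-1.80), CHAF1A (-1.52), PRIM1 (-1.46, standard error 0.32), LIG1, the ligase that joins Okazaki fragments (-1.30), CCNE1 (-1.16) and MCM6 (-0.99), with adjusted p from 0.00454 to 0.0491 from limma. PRIM1 lay at 6.25 and 6.03 on tunicamycin, below all 3 EV arrays at 7.69, 7.67 and 7.66. The probe set used for CDT1 moved by -4.07 in IRE1-DN and -2.28 in EV cells, whereas its other probe set moved by -0.41 and -0.87. The other probe set of CCNE1 moved by -0.01 in IRE1-DN and -0.30 in EV cells. Without replicate 1 of EV cells on tunicamycin, a number that IRE1-DN cells lack, 4 of the 6 genes were still called. Leaving out an IRE1-DN array brought the count to 1 (basal replicate 2), 2 (basal replicate 3), 2 (tunicamycin replicate 2) or 3 (tunicamycin replicate 3).

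The remaining probe sets of these genes moved mostly the same way. Of 34 further probe sets that passed the filter, 30 to 34 were below 0 in each line's response, 21 to 27 were called lower and none higher. Probe sets of the same gene took opposite signs in at least 1 line for CCNE1, CHAF1A, GINS2, POLA2, RFC3 and RRM1, where the positive value was 0.25 or less. Over the 14 group means, pairs of the 43 genes had a median Pearson's r of 0.95 (0.44 to 0.997, 903 pairs), and 40 of the 43 had r of at least 0.9 with their shared mean profile, as had 681 of all genes tested. The shared profile is the mean over the same 43 genes, so each of them is set against a profile that holds it, unlike genes outside the 43. These points share arrays and span the step between conditions, and the likeness within a condition was not tested. The genes outside the 43 most like that profile were CENPK and ERCC6L, of the centromere, EXO1 and RAD54L, of DNA repair, and WDHD1, a replication fork protein, with r from 0.993 to 0.995 over 14 group means.

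Other genes of the pathway, taken as whole lists, were less uniform. Of 35 further DNA replication genes, 24 fell and 2 rose in EV cells, against 12.7% and 18.2% of all genes. WT cells had 26 and 1, S769F cells 27 and 1, Q780* cells 30 and 2, P336L cells 27 and 1, A414T cells 31 and 1, and IRE1-DN cells 25 and 0. WDHD1 fell by 2.10 and DBF4, the activator of the CDC7 kinase, by 2.04 on the log2 scale in EV cells (adjusted p = 0.000341 and 2.42e-06 from limma). All 26 genes of mitosis and G2/M fell in every line, with medians from -1.87 in A414T to -4.19 in Q780* cells. Of all genes, 10.7% in IRE1-DN to 17.3% in A414T cells were called lower. Among them, in EV cells, NDC80 moved by -3.95, CDC20 by -3.95 and MKI67, the Ki-67 antigen, by -3.38.

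Against EV on tunicamycin, the A414T line had 19 of the 26 mitotic genes called higher and none lower, against 10.3% and 14.6% of all genes. Most replication genes called in that line went the opposite way. The P336L line had 8 mitotic genes called higher, against 5.89% of all genes, on the same side as the replication genes called there. In Q780* cells 7 mitotic genes were called lower, against 4.75% of all genes. The A414T count of higher genes was 6 without replicate 1 of A414T or replicate 2 of EV cells, 13 without replicate 3 of EV cells and 24 with replicates 2 and 3 only. That of P336L cells ran from 1 (without replicate 2 of EV or replicate 1 of P336L cells) to 20 (without replicate 1 of EV cells), with 2 without replicate 3 of EV and 5 without replicate 3 of P336L cells, and was 23 with replicates 2 and 3 only. For Q780* cells 18 were lower without replicate 2 of EV, 3 without replicate 1 of EV and 4 without replicate 2 of Q780* cells. Of 12 CDKs, cyclins and inhibitors of G1 and S, 7 fell and 1 rose in EV cells, against 12.7% and 18.2% of all genes. CCNA2, the cyclin of S phase, moved by -3.24 and CDC25A, a phosphatase that activates CDK2, by -1.88. CDKN1A, the CDK inhibitor p21, rose in EV (0.59, adjusted p = 0.0032 from limma), S769F (0.64), Q780* (0.84), A414T (0.90) and IRE1-DN cells (0.57), and did not pass in WT (0.24, adjusted p = 0.254) or P336L cells (0.15, adjusted p = 0.564).

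Of 12 E2F and pocket protein genes, 6 fell and 1 rose in EV cells, against 12.7% and 18.2% of all genes. E2F8, a repressor of E2F targets that is itself made in S phase, fell in all 7 lines, with a log2 fold change of -4.13 in EV cells, as did RBL1, the pocket protein p107, with -1.38. E2F1, an activator, did not pass in EV (-0.37, adjusted p = 0.332 from limma), WT or P336L cells, and fell in Q780* (-1.39), S769F (-0.86), A414T (-1.17) and IRE1-DN cells (-1.35). E2F7, a further repressor, set 2 lines apart: its basal signal was 9.95 ± 0.13 (SD, n = 3) in EV, 6.53 ± 0.27 (SD, n = 3) in A414T and for IRE1-DN cells 3.81 ± 0.053 (SD, n = 2). Against EV cells the log2 fold changes were -3.41 and -6.13 (adjusted p = 2.41e-18 and 4.45e-24 from limma). In IRE1-DN cells that basal signal is below the 40th percentile, so the second value is limited by it. The part of E2F7 in the basal levels of the 43 genes in these lines was not tested.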

How the data were processed

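RNA of U87 cells expressing EV, WT, S769F, Q780*, P336L, A414T or IRE1-DN was hybridized to Affymetrix arrays (40 arrays, 14 groups, 6 µg of total RNA each). The authors deposited log2 signals from RMA; no source used here gives its version or says whether all arrays were processed together. RMA gives all arrays the same distribution, so a change shared by most genes is removed. Of 54715 probe sets, 40914 had 1 gene, 864 several and 12835 none, beside 102 control probe sets; 40858 were matched by Entrez ID. The probe set with the highest mean stood for a gene, and the 17191 of 19774 genes at or above an array's 40th percentile on 2 arrays or more were tested. limma 3.58.1 (R 4.3.3) fitted the group means over all arrays, leaving 26 degrees of freedom beside 3.44 from the prior, for 25 comparisons with calls at adjusted p under 0.05 and no fold minimum. In data simulated for the response of EV cells on 17191 genes, 98% of genes changed by 1.5 on the log2 scale and 67% of those changed by 0.75 were called. The simulated noise was independent between genes and equal in spread over all groups. It therefore holds neither the shift of replicate 1 nor the unequal spread of the groups on tunicamycin. The number of arrays limits the precision. The 43 genes, their 8 roles and the other lists were chosen with earlier results of these data known, and no list was tested as a set. Arrays were printed in full for the gene of each role with the largest change in the EV response and in the basal comparisons. Further genes were named where they opposed or missed the common call, where probe sets parted, or by rule from the other lists; those named within a comparison were chosen after their values were seen.

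Arrays with the same number were marked as paired where every same-number correlation of 3 pairs was over 0.1 (r from -0.39 to 0.63 over 19 comparisons). This was found against EV for WT, S769F and Q780* without treatment and for WT and Q780* with it. The fits reported did not use the pairing, which entered only as the replicate block, an alternative. No source used here says what a number stands for. Alternatives were the mean of all probe sets, no probe sets with a cross-hybridization suffix, no filter or one at the 50th percentile, arrays centred, only the arrays compared, a replicate block, the methods' t-test, leaving out each array, and replicates 2 and 3 only, which was added after the data were seen. Promoters were read from RefSeq (GRCh38.p14). Python 3.11.15 with matplotlib 3.10.9 drew the figures.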

Additional observations from a re-analysis of the deposited data

Results flagged for a closer look

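In A414T cells 6 of the 43 genes, and in IRE1-DN cells 6, responded to tunicamycin differently from EV cells when the difference itself was tested as an interaction in limma. For A414T minus EV, the difference in log2 fold change was -1.40 for CDT1, -1.13 for PRIM1, -1.08 for RFC4, -0.69 for RPA2, -1.35 for CHAF1A and -1.33 for CCNE1. For IRE1-DN minus EV it was -1.80 for CDT1, -0.99 for MCM6, -1.46 for PRIM1, -1.30 for LIG1, -1.52 for CHAF1A and -1.16 for CCNE1. All 12 differences, on the probe sets used, mean a larger fall than in EV cells, and both sets of comparisons use the same EV arrays. The other probe set of CCNE1 moved by -0.07 in A414T, -0.01 in IRE1-DN and -0.30 in EV cells. That of CDT1 moved by -1.59, -0.41 and -0.87 in the same order, and that of MCM6 by -2.13 in IRE1-DN and -1.17 in EV cells. The 4 probe sets of CHAF1A ran from -2.87 to -0.11 in A414T, -3.04 to -0.12 in IRE1-DN and -2.16 to -0.07 in EV cells. PRIM1 in IRE1-DN cells kept its call under all 18 alternatives run for it, whereas MCM6 in IRE1-DN cells lost it under 14 of 18.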

How the results depend on the processing

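Of 103 counts of genes called in the tunicamycin response under other settings, 101 stayed within 1.5 times, as did 70 of 89 for the basal comparisons, 62 of 89 on tunicamycin and 97 of 118 interactions. By the methods' t-test with Benjamini-Hochberg adjustment, calls in the response numbered 24 in A414T and 0 in IRE1-DN cells, where it called none of all genes. Without treatment they numbered 0 in WT, S769F and Q780*, 11 in A414T and 3 in IRE1-DN cells, and on tunicamycin 0 in WT, S769F, P336L and A414T, 1 in Q780* and 3 in IRE1-DN cells. With only the arrays compared in the fit, basal counts were 2 in P336L and 12 in A414T cells, against 4.31% and 12.4% of all genes. Counts on tunicamycin were 1 in WT, 20 in Q780*, 1 in P336L and 2 in A414T cells, against 9.09%, 7.38%, 6.82% and 15.3%. Interactions numbered 7 in Q780* and 0 in A414T cells, against 0.675% and 3.04%. When a gene's probe sets were averaged, A414T cells had 8 calls without treatment (6 higher) and 8 on tunicamycin (2 higher), IRE1-DN cells had 3 interactions, and the median of Q780* cells was -2.15 in the response and -0.64 against EV cells on tunicamycin. Without probe sets that carry a cross-hybridization suffix, P336L cells had 1 interaction, and CHAF1A on tunicamycin against EV turned to 0.14 in A414T and 0.10 in IRE1-DN cells. With replicates 2 and 3 only, a setting chosen after seeing the data, basal counts were 3 in S769F (1 higher), 2 in Q780* (1 higher), 2 in P336L (1 higher), 10 in A414T (9 higher) and 10 in IRE1-DN cells (6 higher). Of all genes 4.47%, 3.39%, 6.93%, 15.1% and 25.3% were called in that order. Counts on tunicamycin were then 15 in WT (2 higher), 7 in P336L (7 higher) and 21 in A414T cells (2 higher), against 8.66%, 10.3% and 21.1% of all genes. Interactions numbered 8 in Q780*, 2 in P336L, 22 in A414T and 14 in IRE1-DN cells (1 higher), against 0.605%, 0.931%, 7.31% and 5.11%. The medians in that setting were -1.99 in WT and -2.55 in A414T cells for the response, -0.52 in A414T and -0.49 in IRE1-DN cells against EV on tunicamycin, and -0.89 for the interaction of A414T cells. The cause of these shifts was not tested.

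With the replicate block in limma, S769F cells had 2 basal calls and Q780* cells 2 interactions, and the other counts stayed within 1.5 times. POLA1 in IRE1-DN cells on tunicamycin lost its call (adjusted p = 0.053), and no other named gene lost its call.

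Leaving out each array in turn gave, without treatment, 0 to 1 calls in Q780* and 3 to 4 in A414T cells. On tunicamycin it gave 1 to 8 in WT, 4 to 17 in S769F, 16 to 29 in Q780*, 1 to 5 in P336L, 9 to 23 in A414T and 12 to 25 in IRE1-DN cells. Interactions numbered 0 to 1 in Q780*, 0 to 1 in P336L, 1 to 22 in A414T and 1 to 6 in IRE1-DN cells. Medians ran from -1.92 to -1.46 for the response of WT, -2.49 to -1.94 for that of A414T, -0.57 to 0.056 for A414T and -0.90 to -0.49 for IRE1-DN against EV on tunicamycin, and -0.37 to 0.069 and -0.98 to -0.40 for the interactions of WT and A414T cells.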
